A study of Mus musculus with 44 samples.

Results

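The comparison of ZT21 with ZT3 in control mice that carried tumour cells rests on 10 of the 44 libraries of the series, with 5 libraries at ZT3 and 5 at ZT21. ZT is zeitgeber time, counted in hours from lights on, so that ZT3 lies in the early light phase and ZT21 in the late dark phase. The mice were young adult females and were labelled wild type (WT). The B16-F10-OVA cells they received are a mouse melanoma line that expresses ovalbumin as a model antigen. Draining inguinal lymph nodes were digested on the day after the tumour cells were given, and CD45+CD11c+MHCIIhigh cells were sorted, 1 mouse per library. The tumour cells had been given at the same ZT, so each ZT marks both injection and collection. The parts of these times cannot be told apart. Further control mice with tumour cells were collected at ZT9 and ZT15 (5 libraries each). Sham-injected WT mice (PBS, 3 libraries per timepoint) and mice labelled as Bmal1ΔcDC (tumour cells, 3 libraries per timepoint) complete the series. In the latter, Clec9a-cre deletes the floxed clock gene Bmal1 (listed as Arntl) in conventional dendritic cells (DCs) and their precursors. Experiments that took different timepoints together used mice whose light cycle had been moved in closed cabinets.

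Dendritic cells of lymph nodes capture antigen, present it on MHC molecules and activate T cells. Those that stain brightly for MHC class II are mostly cells that migrated from tissue with the help of CCR7. Their transcripts can follow the circadian clock, in which BMAL1 and CLOCK activate the Per and Cry repressor genes and the Rev-erb genes (Nr1d1 and Nr1d2) through E-box sequences. Cholesterol synthesis has a feedback control of its own. When sterols are scarce, SCAP carries the SREBP factors from the endoplasmic reticulum, and they activate the genes of synthesis and uptake. INSIG1 holds that complex back, and Insig1 is itself an SREBP target.

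Values are CPM, the reads of a gene per 1000000 reads on the listed genes, and the 10 libraries held 20088012 to 27557466 reads on genes. The sort was checked against markers. Ccr7 lay between 4260 and 6342 CPM, H2-Ab1, an MHC class II chain, between 1861 and 3354 CPM, and Flt3, a DC growth factor receptor, between 416 and 670 CPM. Itgax, which encodes CD11c, lay between 27.0 and 56.5 CPM. The libraries that correlated least with the others of their group on the log2 scale were ZT3 replicate 3 (mean r = 0.963) and ZT21 replicate 1 (mean r = 0.962), against 0.972 to 0.977 for the other 8. ZT3 replicate 3 was the highest library of its timepoint for H2-Ab1 and the lowest for Zbtb46, a DC transcription factor (68.3 CPM against 145 to 190 CPM). Values without them are given beside a number of the results.

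Of 11963 genes tested with limma on log2(CPM + 0.5), 5 passed an adjusted p of 0.05 between ZT21 and ZT3, which is 0.0418% of the genes. Insig1, F2r and Ltb4r1 fell and Tma16 and Mbd2 rose towards ZT21. At an unadjusted p under 0.05, 893 genes (7.46%) were higher and 487 (4.07%) were lower at ZT21, 11.5% in all. That split depended on the scaling. With median-of-ratios scaling 600 genes were higher and 826 lower, and without the pair of low-correlation libraries 851 were higher and 943 lower. In 189 genes (1.58%) all 5 ZT21 libraries lay above all 5 ZT3 libraries, and in 82 genes (0.685%) all lay below. The median difference of all genes tested was 0.04 on the log2 scale, and 56.3% of them were higher at ZT21.

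**Figure D1:**
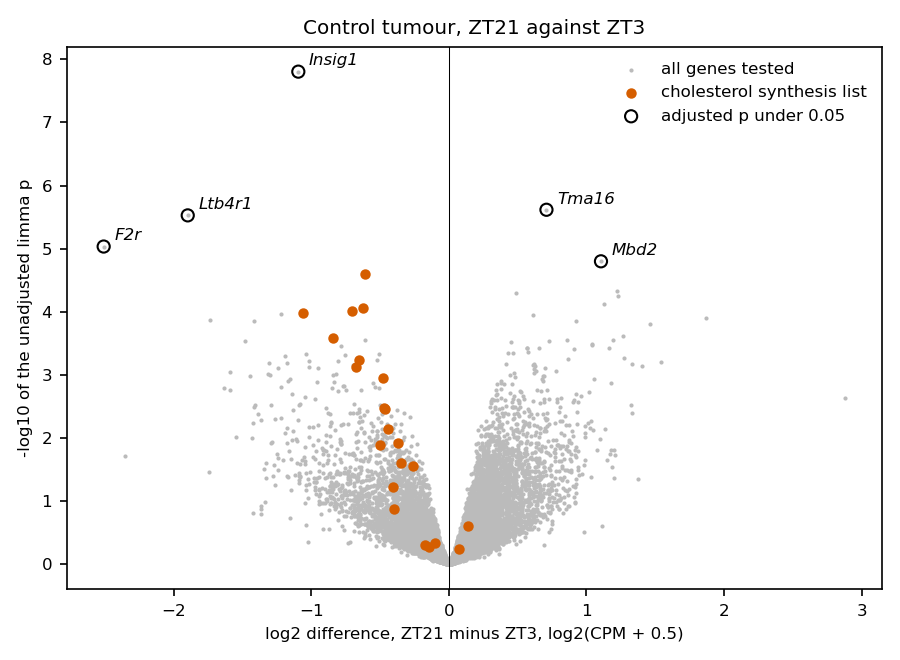
Log2 difference between ZT21 and ZT3 in control tumour libraries (x axis) against the -log10 of the unadjusted limma p (y axis) for 11963 genes, grey, with the cholesterol synthesis list in orange. The 5 ringed genes passed an adjusted p of 0.05, and 20 of the 22 orange genes lie left of 0.

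The clearest single gene was Insig1 (GRCm38.p6, chr5:28071412-28078662). Its 5 ZT3 libraries held 54.5, 54.5, 50.1, 41.1 and 54.5 CPM, and the 5 ZT21 libraries held 24.7, 23.3, 19.8, 22.1 and 28.2 CPM. Every ZT21 library was thus below every ZT3 library, and also below every library of ZT9 (54.4 to 61.0 CPM) and ZT15 (35.7 to 50.9 CPM). Insig1 fell by 1.09 on the log2 scale (SE 0.12, adjusted p = 1.88e-04, limma), from 50.9 ± 5.8 CPM to 23.6 ± 3.1 CPM (SD, n = 5 each). It passed under all 21 alternative settings, with adjusted p between 9.13e-05 and 0.00139 when 1 library was left out.

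Genes of cholesterol synthesis lay lower at ZT21 as a list, although none of them passed after adjustment. Of 22 tested, 20 were lower, 15 of these at an unadjusted p under 0.05 (4.07% of all genes tested), and none was higher at that p. The median difference was −0.45, against 0.04 for all genes, and it stayed between −0.51 and −0.41 under the other scalings, pseudocounts and filters and without the low-correlation libraries. In 5 of the 22 genes, against 0.685% of all genes tested, all ZT21 libraries lay below all ZT3 libraries. The genes and their direction were known from earlier results of these data, so the count is a description.

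Msmo1, which removes a methyl group of the sterol intermediate, came nearest to the threshold. It held 140, 146, 152, 105 and 119 CPM at ZT3 and 79.5, 88.8, 86.4, 93.3 and 82.3 CPM at ZT21, with no overlap (difference −0.61, SE 0.11, adjusted p = 0.0511, limma). Sqle, the squalene epoxidase, held 74.4, 92.6, 73.6, 71.6 and 85.4 CPM at ZT3 and 56, 51.4, 35.9, 47.2 and 54.0 CPM at ZT21 (difference −0.70, adjusted p = 0.0881, limma), again without overlap. Lss, which closes the sterol ring, held 42.8, 42.3, 33.5, 36 and 47.6 CPM against 10.6, 22.5, 16, 27.2 and 23.3 CPM (difference −1.06, adjusted p = 0.0881, limma). All 5 ZT21 libraries were lower for Lss as well. Fdft1, the squalene synthase, averaged 131 ± 25 CPM at ZT3 and 84.1 ± 10.4 CPM at ZT21 (SD, n = 5 each), and 1 ZT3 library (95.3 CPM) lay below the highest ZT21 library (96.7 CPM). In most libraries its deposited values were not whole reads. Ggps1 and Pmvk were the 2 members with a difference above 0 (0.14 and 0.08).

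**Figure D2:**
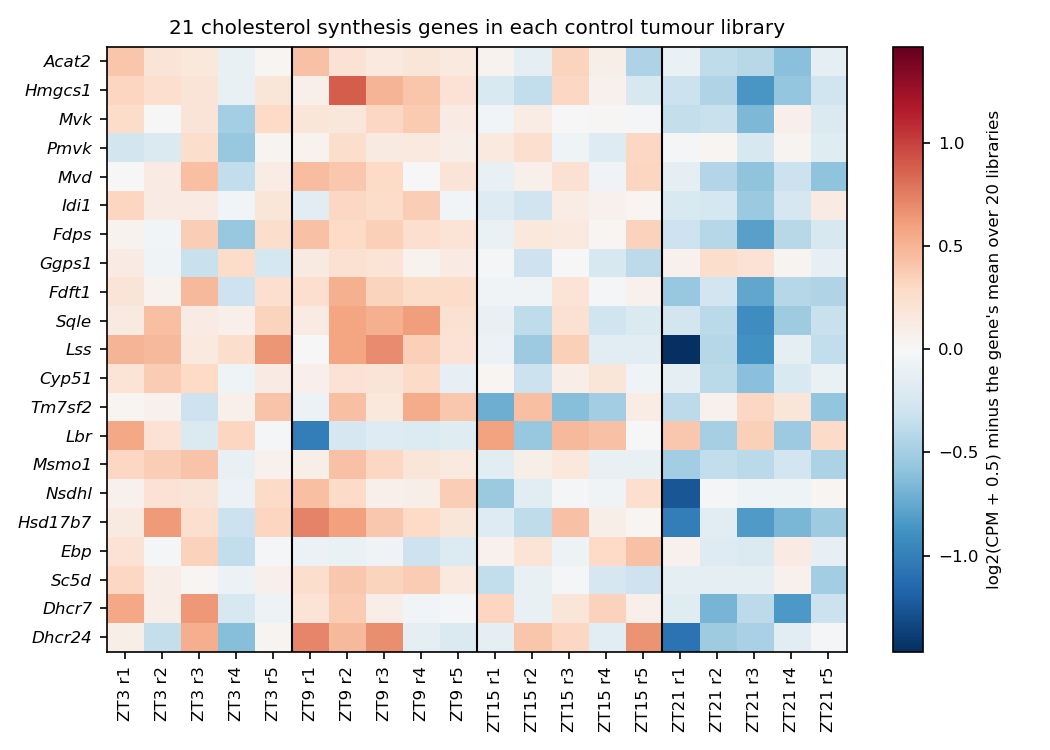
Deviation of 21 of the 22 cholesterol synthesis genes (rows) from its mean over the 20 control tumour libraries on the log2(CPM + 0.5) scale (colour), with libraries (columns, r for replicate) ordered by timepoint. Most genes are blue in the 5 ZT21 columns and red at ZT9, and ZT3 replicate 4 is bluer than the other ZT3 libraries.

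Among 17 tested genes of sterol sensing, uptake and efflux, 5 were lower and 1 was higher at an unadjusted p under 0.05. The shares of all genes tested were 4.07% and 7.46%. The list median was −0.07, and 7 of the 17 genes were higher by sign. Among the lower genes besides Insig1 were the sterol carrier Stard4 and the SREBP genes Srebf1 and Srebf2. Srebf1 held 52.1, 52.2, 49.3, 48 and 54.3 CPM at ZT3 and 27.3, 47.3, 40.8, 39.8 and 46.1 CPM at ZT21, with no overlap (difference −0.37, adjusted p = 0.356, limma). Without ZT21 replicate 1 the difference was −0.23, no longer at that p. In the list of fatty acid synthesis and desaturation 3 of 14 genes were lower and none was higher at that p (4.07% and 7.46% of all genes tested). They were the desaturases Scd2 and Fads2 (differences −0.53 and −0.81) and the synthase Fasn (−0.65), each with an adjusted p of 0.189 or above (limma). Fasn overlapped between timepoints. Scd2 and Fads2 did not, as was so in this direction for 0.685% of all genes tested.

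Across all 4 timepoints, the mean deviation of the cholesterol synthesis genes lay between −0.15 and 0.22 at ZT3, between 0.11 and 0.35 at ZT9, between −0.11 and 0.14 at ZT15 and between −0.44 and −0.24 at ZT21. No ZT21 library overlapped a library of another timepoint. The lowest ZT3 library was replicate 4, the only one of its timepoint below 0.

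The bases before the transcript starts of these genes were searched because most members lay lower at ZT21. RefSeq promoters (GRCm38.p6) were at hand for 17 of the 22 cholesterol synthesis genes and for 9626 of all genes tested, and the 250 bases before each start were read on both strands. The E-box CACGTG stood before 3 of the 17 cholesterol synthesis genes (17.6%) and before 3 of 12 genes of sterol sensing, uptake and efflux (25%), against 9.74% of all genes. It stood before 1 of 11 genes of fatty acid synthesis and desaturation (9.09%). A sterol response element core, TCACNCCAC, stood before 1 of the 17 cholesterol synthesis genes (5.88%), against 1.23% of all genes. It stood before 0 of 12 genes of sterol sensing, uptake and efflux and 0 of 11 genes of fatty acid synthesis and desaturation. These are matches of letters only. The matches of Insig1 and of the synthesis genes are shown, 5′ to 3′ on the strand of the gene, with the matched letters in capitals. Insig1 lies at chr5:28071299-28071328 (plus strand), Hsd17b7 at chr1:169969331-169969360 (minus), Dhcr7 at chr7:143823223-143823252 (plus), Sc5d at chr9:42264381-42264410 (minus) and Hmgcs1 at chr13:119690204-119690233 (plus).
Insig1, E-box: gctgggtgaggtCACGTGgctccggtggca
Hsd17b7, E-box: ggacccttgtgtCACGTGgctccgcccctc
Dhcr7, E-box: cgctgtgatgaaCACGTGgcaaaaagcagc
Sc5d, E-box: ctacgcggcgacCACGTGaccgccgcgacc
Hmgcs1, sterol response element core: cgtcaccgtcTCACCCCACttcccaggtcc
Hsd17b7, Dhcr7, Sc5d and Hmgcs1 act at different steps of cholesterol synthesis, and their differences between ZT21 and ZT3 were −0.84, −0.68, −0.26 and −0.66. They were chosen for their matches after their values had been seen.

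Tma16, which encodes a factor bound to ribosome precursors, rose. It held 3.72, 4.72, 4.0, 4.15 and 4.25 CPM at ZT3 and 7.51, 6.88, 8.56, 6.67 and 6.15 CPM at ZT21, with no overlap (difference 0.71, SE 0.11, adjusted p = 0.0118, limma). ZT9 (4.32 to 5.95 CPM) and ZT15 (4.42 to 5.78 CPM) also lay below every ZT21 library. Without ZT3 replicate 1 its adjusted p was 0.0632, and without the low-correlation libraries 0.111 (limma).

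Mbd2, a protein that binds methylated DNA, also rose. It held 59.3, 65.9, 57.1, 60.8 and 78.5 CPM at ZT3 and 154, 104, 153, 139 and 147 CPM at ZT21 (difference 1.11, SE 0.19, adjusted p = 0.0379, limma). The timepoints did not overlap. ZT15 lay between 94.8 and 135 CPM, while ZT9 ran from 58.2 to 144 CPM, with replicate 3 inside the ZT3 range. The adjusted p of Mbd2 exceeded 0.05 without any 1 of 8 of the 10 libraries (up to 0.141), under median-of-ratios scaling (0.0721) and without the low-correlation libraries (0.192). In sham mice Mbd2 held 27.9, 29.2 and 44.1 CPM at ZT3 and 33.3, 29.4 and 33.3 CPM at ZT21. In mice labelled Bmal1ΔcDC it held 30.9, 21.8 and 17.5 CPM and 67.9, 46.0 and 26.9 CPM. Both arms overlapped between the timepoints.

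Of the genes that came next in the same direction, some resembled Mbd2 over the day and others did not. Csnk2a2, a catalytic subunit of casein kinase 2, held 7.40 to 9.95 CPM at ZT3 and 13.6 to 30.1 CPM at ZT21 (difference 1.22, adjusted p = 0.0757, limma). Cul3, a ubiquitin ligase scaffold, held 23.0 to 42.5 CPM at ZT3 and 52.5 to 98.0 CPM at ZT21 (difference 1.23, adjusted p = 0.0757, limma). In both genes the timepoints did not overlap, ZT21 replicate 2 was the lowest ZT21 library, and replicate 5 was the highest ZT9 library. Egln1, an oxygen sensor that marks HIF for degradation, followed the same order (difference 1.27, adjusted p = 0.128, limma). Fyb, an adaptor of T cells and myeloid cells, and Mtif2, a mitochondrial translation factor, differed without that course. Fyb averaged 101 ± 9 CPM and 143 ± 14 CPM, and Mtif2 15.8 ± 2.4 CPM and 24.2 ± 1.6 CPM (ZT3 and ZT21, SD, n = 5 each, adjusted p = 0.0757 and 0.0881, limma). Mtif2 was high at ZT9 and ZT21 and low at ZT3 and ZT15 (difference between ZT15 and ZT9 −0.61).

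**Figure D3:**
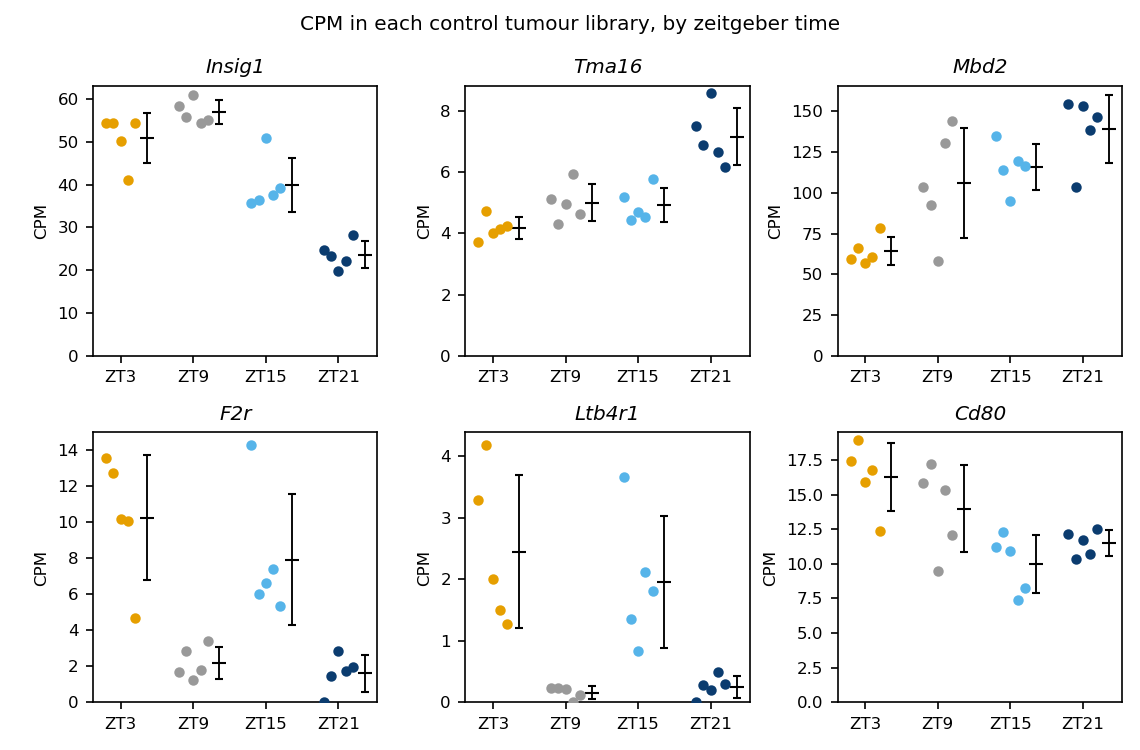
CPM (y axis, from 0) of the 5 genes that passed and of Cd80 in each control tumour library at 4 timepoints (x axis), with the mean and SD of 5 libraries beside the points. Insig1 and Tma16 stand apart at ZT21, 1 ZT9 library of Mbd2 lies within its low ZT3 values, and F2r and Ltb4r1 are high at both ZT3 and ZT15.

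F2r, the thrombin receptor PAR1, had the largest fall of the 5 genes on the log2(CPM + 0.5) scale. It held 13.6, 12.7, 10.2, 10.1 and 4.68 CPM at ZT3 and 0, 1.45, 2.84, 1.76 and 1.99 CPM at ZT21 (difference −2.51, SE 0.42, adjusted p = 0.0277, limma). Ltb4r1, the high-affinity receptor of leukotriene B4, held 3.29, 4.17, 2.00, 1.49 and 1.27 CPM at ZT3 and 0, 0.282, 0.199, 0.491 and 0.303 CPM at ZT21 (difference −1.90, SE 0.29, adjusted p = 0.0118, limma). It averaged under 5 CPM and is named because it passed. The scale understates the falls of such low genes, so the 2 genes are not ranked by fold. With a pseudocount of 0.1 the differences were −3.12 for F2r and −2.92 for Ltb4r1. Neither gene overlapped between the timepoints, and neither followed a single turn over the day. F2r lay between 5.34 and 14.3 CPM at ZT15 and between 1.25 and 3.39 CPM at ZT9, and Ltb4r1 between 0.829 and 3.66 CPM at ZT15 and at most at 0.237 CPM at ZT9. Without the low-correlation libraries the adjusted p was 0.0934 for F2r and 0.111 for Ltb4r1 (limma). Leaving out 1 library took F2r past 0.05 in 5 of 10 cases and Ltb4r1 without ZT3 replicate 1 (0.0632). F2r was much lower in these mice than in the other arms, since it lay between 29.98 and 68.3 CPM in the sham libraries of both timepoints.

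Immediate early genes, which answer stimulation and also tissue digestion within minutes to hours, lay lower at ZT21. Of 24 genes, 22 were lower, 9 of them at an unadjusted p under 0.05 (4.07% of all genes tested), and the median difference was −0.34. With median-of-ratios scaling 15 reached that p, while the count over all genes went from 487 to 826. None passed after adjustment. Egr1, an early transcription factor, held 306, 234, 204, 98.2 and 190 CPM at ZT3 and 58.5, 56.1, 167, 105 and 51.0 CPM at ZT21 (difference −1.30, adjusted p = 0.16, limma). ZT3 replicate 4 and ZT21 replicates 3 and 4 overlapped. Ier2 and Jun, also early genes, differed by −0.83 and −0.65 (adjusted p = 0.178 and 0.24, limma). Rhob, a small GTPase, was the only member with no overlap, at 24.2 to 31.0 CPM and 15.9 to 23.7 CPM. As with F2r, the same list was high at ZT15 and low at ZT9, since 23 of 24 genes were higher at ZT15 than at ZT9, with a median difference of 0.55. In the inflammatory genes Tnf and Nfkbiz the order was alike. Tnf averaged 51.3, 22.9, 70.3 and 30.3 CPM at ZT3, ZT9, ZT15 and ZT21. The time from death to lysis is not in the labels, and its part in these values was not tested.

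Markers of monocytes and macrophages were lower at ZT21 in 13 of 13 genes (43.7% of all genes tested), with 4 at an unadjusted p under 0.05 (4.07% of all genes) and a median difference of −0.32. Without the low-correlation libraries the median was −0.21 with 3 at that p, and leaving out 1 library gave medians between −0.34 and −0.20, the smallest without ZT21 replicate 2. Ccr2, the receptor for CCL2, held 21.3, 19.8, 11.5, 13.4 and 10.4 CPM at ZT3 and 6.11, 4.14, 4.69, 8.57 and 3.67 CPM at ZT21, with no overlap (difference −1.41, adjusted p = 0.235, limma). Lyz2, a lysozyme, averaged 718 ± 193 CPM and 520 ± 48 CPM (SD, n = 5 each). The summed level of the list ran from 669 to 1171 CPM at ZT3 and from 639 to 767 CPM at ZT21. No marker of the list was at 0 in all 10 libraries, and 2 of the 13 were at 0 in at least 1. The complement genes C1qa, C1qb and C1qc differed by −0.13, −0.07 and −0.03. Without the low-correlation libraries these values were −0.10, 0.08 and 0.05, so that not all 13 genes were lower there. In bulk samples fewer cells of a type and less RNA per cell cannot be told apart. The list was higher at ZT15 than at ZT9 in 12 of 13 genes (median difference 1.09), so that F2r, Ltb4r1, the immediate early genes and these markers were all higher on average at ZT3 and ZT15 than at ZT9 and ZT21. F2r was highest at ZT3, and the immediate early and monocyte lists were highest at ZT15 and lowest at ZT9. The part of these markers in the other results was not tested. The labels do not give the session in which a mouse was collected, so session and time of day cannot be told apart here.

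**Figure D4:**
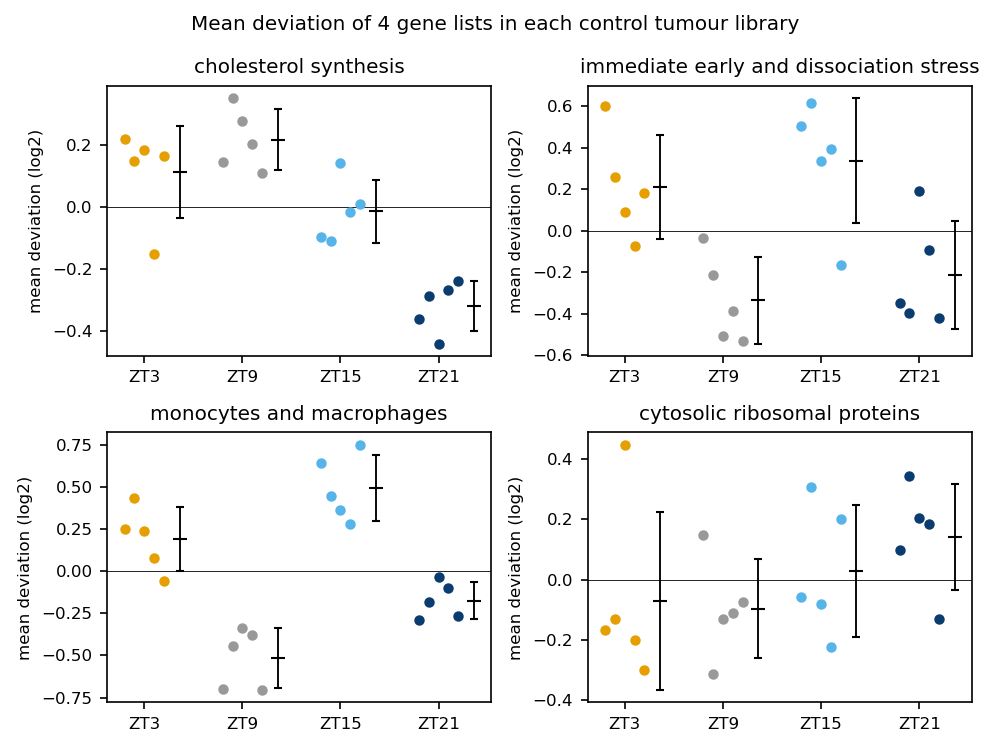
Mean deviation of the genes of 4 lists from their own means over the 20 control tumour libraries (y axis, log2) for each library at 4 timepoints (x axis), with the mean and SD of 5 libraries beside the points. The cholesterol list is low at ZT21 alone, the immediate early and monocyte lists are lower at ZT9 and ZT21, and ZT3 replicate 3 stands high for ribosomal protein genes.

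The core clock genes did not pass in this comparison. Arntl held 24.4, 12.4, 11.8, 17.3 and 16.6 CPM at ZT3 and 20.3, 13.9, 13.0, 15.6 and 15.6 CPM at ZT21, with a wide overlap (difference −0.04, SE 0.19, adjusted p = 0.956, limma). Clock, Per1, Per2, Cry1, Cry2, Nr1d2 and the output factor Tef also overlapped, with differences between −0.15 and 0.30 and adjusted p of 0.83 or above (limma). Npas2, a partner of BMAL1, lay near the floor, with means of 0.08 and 0.206 CPM. Per3 differed by 0.75 (8.98 CPM on average at ZT21 against 5.70 CPM) and Ciart, a repressor, by 0.39. Without ZT3 replicate 3, the lowest ZT3 library for both, these differences were 0.44 and 0.05. Without both low-correlation libraries that of Cry2 turned from 0.14 to −0.12, and those of Nr1d2, Tef and Arntl became −0.57 (adjusted p = 0.319, limma), −0.31 and −0.24 instead of −0.08, −0.07 and −0.04. Bhlhe40, a repressor that competes for E-boxes, was the only tested gene of the 3 clock lists without overlap. It held 342, 301, 260, 263 and 287 CPM at ZT3 and 172, 145, 257, 173 and 188 CPM at ZT21, with no overlap (difference −0.65, adjusted p = 0.247, limma). Nr1d1, a repressor of Arntl, averaged 2.59 and 1.08 CPM and overlapped (difference −0.97, adjusted p = 0.431, limma). Dbp, an output factor driven by E-boxes, held 27.7, 26.4, 15.3, 29.0 and 20.1 CPM at ZT3 and 26.7, 34.1, 30.6, 31.0 and 27.8 CPM at ZT21 (difference 0.37, adjusted p = 0.356, limma). Without ZT3 replicate 3 the difference was 0.22. Its ZT9 and ZT15 libraries, between 33.5 and 48.1 CPM, exceeded all ZT3 libraries. Nfil3, an opposing factor, differed by −0.36.

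Cd80, a costimulatory ligand of CD28, was tested on its own because the paper follows it. The paper had picked Cd80 out from these same libraries, so its permutation p below is not independent support. It held 17.4, 18.9, 15.9, 16.8 and 12.3 CPM at ZT3 and 12.2, 10.3, 11.7, 10.7 and 12.5 CPM at ZT21, and ZT3 replicate 5 was the one library that overlapped. The means differed by −4.79 CPM (exact two-sided permutation test over 252 arrangements, p = 0.0159). In the fit across all genes it did not pass (difference −0.47, adjusted p = 0.314, limma). ZT15 (7.39 to 12.3 CPM) was as low as ZT21, and ZT9 ran from 9.5 to 17.2 CPM. Cd86, the related ligand, averaged 166 ± 34 CPM and 139 ± 23 CPM (SD, n = 5 each) and overlapped, with a difference of −0.25, or −0.15 without ZT3 replicate 3. Of 6 tested ligands of this family 4 were lower (43.7% of all genes tested), 1 of them at an unadjusted p under 0.05 (4.07% of all genes tested). Cd80 was also lower at ZT21 in the other arms, without overlap. In sham mice it held 14.2, 10.5 and 11.5 CPM at ZT3 and 8.02, 9.24 and 8.95 CPM at ZT21. In mice labelled Bmal1ΔcDC it held 14.8, 12.5 and 14.4 CPM at ZT3 and 8.48, 12.3 and 7.07 CPM at ZT21.

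None of the antigen presentation and chemokine genes passed after adjustment. The counts below at an unadjusted p under 0.05 stand against 7.46% of all genes tested for higher genes and 4.07% for lower genes. No gene of 12 for MHC class II presentation reached an unadjusted p of 0.05 (median −0.12), and without the low-correlation libraries the median was 0.02. Of 17 genes for MHC class I and peptide loading 1 was lower at that p, the chaperone Canx, and without the low-correlation libraries 3 were lower and 2 higher. Of 13 chemokines 9 were lower and 1, Ccl22, reached that p (median −0.28, and −0.16 without the low-correlation libraries). Ccl22, which attracts CCR4-bearing T cells, averaged 5592 CPM at ZT3 and 4244 CPM at ZT21. Without ZT3 replicate 3, which held 8100 CPM, the ZT3 mean was 4964 CPM and the difference −0.22 instead of −0.36, no longer at that p. Among 20 genes of migratory mature DCs 3 were lower and 1 was higher at that p, with a median difference of 0.02 that became −0.04 under median-of-ratios scaling. Stat4, a mediator of IL-12 signalling, was the first of these at 100 to 161 CPM and 59.9 to 129 CPM (difference −0.78, adjusted p = 0.128, limma), and ZT21 replicate 5 alone overlapped with ZT3. Of 13 cytokines of T cell priming 3 were higher and 2 lower at that p, among them Il15 and Il18 (0.32 and 0.39), which sustain T and NK cells, and Tnf (−0.76). In this list 1 was higher and 1 lower without the low-correlation libraries, and the median turned from 0.12 to −0.03.

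Ribosomal protein, splicing and oxidative phosphorylation genes lay mostly above their ZT3 levels at ZT21 by small amounts. Their counts at an unadjusted p under 0.05 stand against 7.46% of all genes, and the shares of the ribosomal and oxidative phosphorylation lists were near or below it. All 44 cytosolic ribosomal protein genes were higher, with differences between 0.04 and 0.36 and a median of 0.21, and 4 of them reached an unadjusted p of 0.05. ZT3 replicate 3 was above all other libraries of both timepoints in the mean of this list. Without the low-correlation libraries the median was 0.35 and 37 of 44 genes reached that p, and with median-of-ratios scaling the median was 0.15 and none did. Of 33 splicing factors 29 were higher and 8 reached that p (median 0.13). Without the low-correlation libraries 3 did (median 0.08), and with median-of-ratios scaling 7 did (median 0.08). Srsf11 averaged 146 ± 18 CPM and 190 ± 16 CPM (SD, n = 5 each), and Rbm25 112 ± 18 CPM and 155 ± 21 CPM, both without overlap. Of 39 genes of oxidative phosphorylation 30 were higher and 1 reached that p (median 0.10). Without the low-correlation libraries 17 did (median 0.20), and with median-of-ratios scaling none did (median 0.04).

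**Figure D5:**
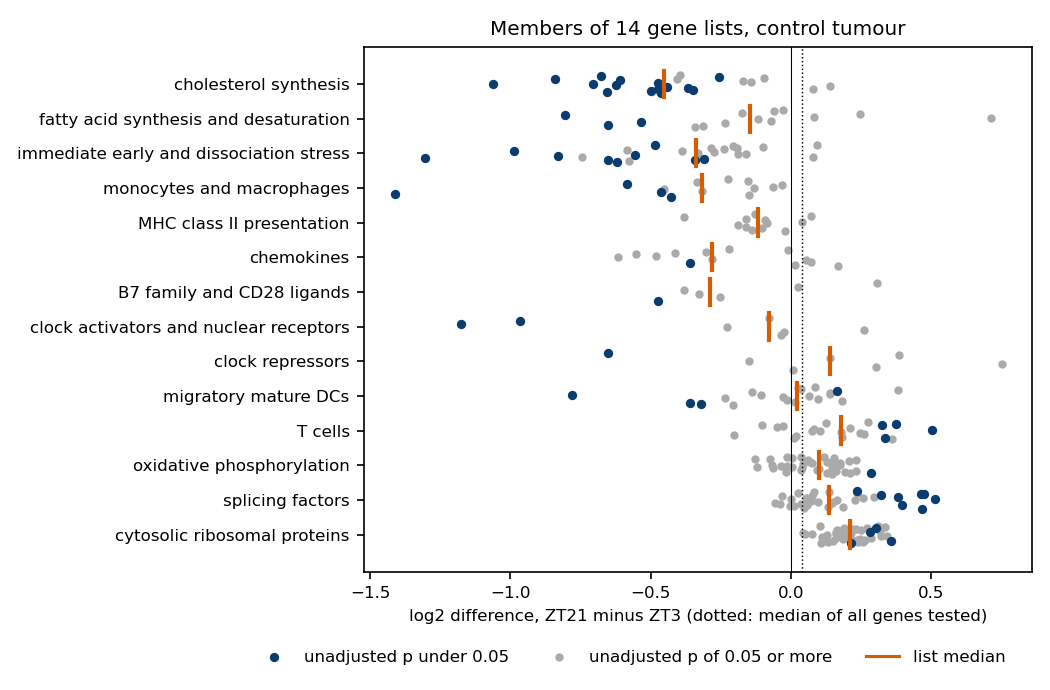
Log2 difference between ZT21 and ZT3 in control tumour (x axis) for each tested member of 14 gene lists (rows), with members at an unadjusted p under 0.05 in blue, the list median in orange and the median of all genes dotted. The lists run from a median of −0.45 for cholesterol synthesis to 0.21 for ribosomal proteins.

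Markers of other cells in the gate were measured as well. Of all genes tested, 56.3% were higher by sign, and 7.46% were higher and 4.07% lower at an unadjusted p under 0.05. Of 21 T cell genes 17 were higher at ZT21 and 4 reached an unadjusted p of 0.05 (median 0.18, and 0.10 with none at that p without ZT21 replicate 3), with a summed level of 909 to 1150 CPM at ZT3 and 1040 to 1352 CPM at ZT21. Cd27, Lef1, Cd8b1 and Cd3g were these 4, and Cd3e differed by 0.01. With median-of-ratios scaling 1 of the 21 reached that p, and without the low-correlation libraries 7 did. Over all genes tested 600 and 851 were higher at that p in these settings. Ncr1, an activating receptor of NK cells, averaged 2.27 and 0.427 CPM, while Nkg7 and Klrd1, the most abundant NK markers, averaged 21.4 and 15.9 CPM at ZT3 and 26.2 and 19.1 CPM at ZT21. Of the 9 NK cell genes 3 were higher and 6 lower (median −0.06), and their summed level had medians of 49.5 CPM at ZT3 and 52.5 CPM at ZT21. Granulocyte genes summed to 3.90 to 27.4 CPM at ZT3, the highest library being replicate 2, and to 1.76 to 5.88 CPM at ZT21. Their median was −0.66, and −0.13 without that library. Erythroid genes summed to at most 5.88 CPM and melanoma genes to at most 3.86 CPM. The lists for type 1 and type 2 conventional DCs had medians of 0.09 and −0.21, with no and 1 member at that p. The type 1 median was 0.03 with median-of-ratios scaling. Without the low-correlation libraries the medians were 0.02 and −0.31, with 1 and 3 members at that p, and without ZT21 replicate 5 the type 2 median was −0.04. Of 8 Langerhans cell genes 2 were higher and 6 lower (median −0.16, and −0.26 without the low-correlation libraries). Among them Cd207, which encodes langerin, differed by 0.70, or by 0.37 without the low-correlation libraries, and Cdh1, an epithelial cadherin of Langerhans cells, by −1.09, or by −0.79 without ZT3 replicate 2.

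The course at ZT9 and ZT15 and the other arms were set beside the comparison. The ZT9 and ZT15 libraries also entered the estimate of the spread, and with only ZT3 and ZT21 libraries 707 genes were higher and 480 lower at an unadjusted p under 0.05. Of the 893 genes higher at ZT21 at an unadjusted p under 0.05, 216 (24.2%) were also higher at ZT15 than at ZT9, and of the 487 lower genes 220 (45.2%) were also lower at ZT15 than at ZT9. Over all genes tested 35.8% were higher and 64.2% were lower in that comparison. In sham mice 318 of the 487 lower genes (65.3%) were lower at ZT21 as well, against 56.8% of all genes, and in mice labelled Bmal1ΔcDC 215 of them (44.1%), against 42.0% of all genes. Of the 893 higher genes 396 (44.3%) were higher in sham mice, against 43.2%, and 542 (60.7%) in mice labelled Bmal1ΔcDC, against 57.9%.

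No gene passed between ZT21 and ZT3 in sham mice (0%, with 627 genes or 5.24% at an unadjusted p under 0.05) or in mice labelled Bmal1ΔcDC (0%, with 963 genes or 8.05%), each with 3 libraries per timepoint and limma. Insig1 differed by −0.59 in sham mice, with 35.5, 48.8 and 40.2 CPM at ZT3 and 17.5, 43.8 and 26.2 CPM at ZT21. In mice labelled Bmal1ΔcDC it differed by −0.21, with 40.9, 45.6 and 46.2 CPM against 47.6, 43.3 and 26.9 CPM. The timepoints overlapped in both arms. Cholesterol synthesis genes had a median of −0.21 in sham mice, where 4 of 22 were higher, and of −0.01 in mice labelled Bmal1ΔcDC, where 11 were higher. Immediate early genes had medians of −0.47 and 0.03, monocyte markers of 0.12 and −0.09, and ribosomal protein genes of 0.19 and −0.43. In the mice labelled Bmal1ΔcDC the ribosomal median became −0.04 when ZT21 replicate 1 was left out and −0.71 when replicate 3 was, and leaving out 1 library moved the cholesterol median between −0.14 and 0.15. In sham mice the immediate early median became −0.28 when ZT3 replicate 3 was left out, and the ribosomal median was 0.11 when ZT21 replicate 3 was left out and 0.29 when ZT21 replicate 2 was. The monocyte medians of both arms and the immediate early median of the mice labelled Bmal1ΔcDC changed sign when 1 library was left out. Arntl held 20.8, 23.9 and 14.8 CPM at ZT3 and 38, 24.5 and 17.6 CPM at ZT21 in the libraries labelled Bmal1ΔcDC, so it was not lower there than in control tumour libraries. The count covers the whole gene, including exons that the deletion leaves.

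The difference of the differences was tested directly. Between tumour-bearing and sham mice no gene passed (0%, with 873 genes or 7.3% at an unadjusted p under 0.05, limma). At that p 3 of 22 cholesterol synthesis genes, 0 of 24 immediate early genes and 1 of 44 ribosomal protein genes differed in this way. So did 7 of 21 T cell genes and 7 of 33 splicing factors. In sham mice 1 of the 21 T cell genes was higher (median −0.35), as were 4 of the 33 splicing factors (median −0.10). The 5 genes with the smallest p among those with at least 5 CPM, Aasdhppt, Armcx5, Smc4, Fap and Spns3, had adjusted p between 0.42 and 0.46. For Insig1 the difference of differences was −0.51 (SE 0.26, adjusted p = 0.699, limma).

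Between control mice and mice labelled Bmal1ΔcDC 3 genes passed (0.0251%, with 1272 genes or 10.6% at an unadjusted p under 0.05, limma). F2r, described before, held 36.7, 32.7 and 18.6 CPM at ZT3 and 63.5, 39.9 and 59.6 CPM at ZT21 in the libraries labelled Bmal1ΔcDC, where every ZT21 library lay above every ZT3 library. The difference of differences was −3.41 (SE 0.62, adjusted p = 0.0352, limma). Crls1, the cardiolipin synthase, held 3.58, 1.95 and 3.44 CPM and 15.2, 25.9 and 20.2 CPM in those libraries, against means of 16.3 and 18.9 CPM in control mice (difference of differences −2.37, SE 0.42, adjusted p = 0.0352, limma). Taf15, an RNA-binding protein, held 10.9, 7.21 and 6.06 CPM and 3.53, 3.63 and 2.21 CPM in those libraries, against means of 5.66 and 6.85 CPM (difference of differences 1.48, SE 0.26, adjusted p = 0.0352, limma). F2r passed in 7, Crls1 in 8 and Taf15 in 11 of the 16 runs that left out 1 library, with adjusted p up to 0.16, 0.095 and 0.087 (limma). Zdhhc18, a palmitoyl transferase, and Hs6st1, a heparan sulfate sulfotransferase, came next without passing (−1.98 and −2.63, adjusted p = 0.0574, limma). In sham mice at ZT3 and ZT21 Crls1 lay between 1.26 and 11.7 CPM, below every control tumour library. The Bmal1ΔcDC ZT9 libraries held 4.37, 9.72 and 21.1 CPM of Crls1. Within sham ZT3, sham ZT21 and Bmal1ΔcDC ZT9, Zdhhc18 and Hs6st1 ranked the libraries in the same order as Crls1. The cause of this spread was not tested. For Insig1 the difference of differences was −0.88 (SE 0.24, adjusted p = 0.179, limma). At an unadjusted p under 0.05, 6 of 22 cholesterol synthesis genes, 6 of 24 immediate early genes and 23 of 44 ribosomal protein genes differed in this way. For the ribosomal protein genes the count was 0 when Bmal1ΔcDC ZT21 replicate 1 was left out and reached 44 when replicate 3 was. The cholesterol count was 4 when Bmal1ΔcDC ZT3 replicate 3 was left out and 11 when Bmal1ΔcDC ZT21 replicate 3 was. The immediate early count was 2 when Bmal1ΔcDC ZT3 replicate 2 or replicate 3 was left out and 12 when control ZT3 replicate 4 was. Bmal1ΔcDC ZT21 replicate 1 had the lowest mean correlation of all 44 libraries with its group (r = 0.933).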

How the data were processed

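Messenger RNA of sorted lymph node DCs was sequenced in 44 libraries. The deposited table holds CPM, which the authors made by aligning reads to the mouse genome with STAR, counting them per gene with HTSeq 0.9.1 and scaling each library to a total of 1000000. The counts were not used here, and 87.5% to 88.0% of the CPM values of the 10 libraries were whole reads (within 0.01), so no count test was run. Of 14699 genes, 11963 had at least 1 CPM in at least 5 libraries, and 2736 were left out. For each arm limma 3.58.1 (R 4.3.3) was fitted on log2(CPM + 0.5) with all 4 timepoints, so that fold changes of low genes are understated, and p-values were adjusted by Benjamini-Hochberg over all genes tested. Cd80 was tested by an exact permutation. Libraries were made with the SMART-Seq kit, which does not mark strand, so reads of overlapping genes cannot be told apart. Groups came from the labels. The methods state separate mice, and the labels do not give the experiment each mouse belonged to. Genes were named by p among those averaging at least 5 CPM, by lists, or as stated. The members and lists were chosen with earlier results of these data known. The fits were also tested on simulated data, and no result of that is given here. Alternatives changed the pseudocount (1 and 0.1), scaling, filter, variance model, libraries and replicate block, and the array weights stopped short of convergence in 1 fit. Single values of a few list members are not reported here.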

Additional observations from a re-analysis of the deposited data

Results flagged for a closer look

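In 7 of 170 groups of 5 libraries, 1 library stood apart from the other 4 of its timepoint, and chance gives about 1 in 20 such groups. ZT3 replicate 3 was high for H2-Ab1 (3354 CPM, the next library 2269 CPM) and for Cd3e (91.7 CPM, next 59.7 CPM). ZT21 replicate 1 was high for Crls1 (23.6 CPM, next 18.3 CPM) and for Canx (332 CPM, next 276 CPM). Cdh1 was high in ZT3 replicate 2 (14.97 CPM, next 6.35 CPM), Cd8b1 in ZT21 replicate 3 (48.5 CPM, next 38.3 CPM) and Stat4 in ZT21 replicate 5 (129 CPM, next 77.3 CPM).

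The difference between ZT21 and ZT3 was not the same in control mice and in mice labelled Bmal1ΔcDC for F2r (difference of differences −3.41), Crls1 (−2.37) and Taf15 (1.48), each with an adjusted p of 0.0352 in limma. Crls1 was also low in sham mice at ZT3 and ZT21, at 1.26 to 11.7 CPM. None of all genes tested passed without control ZT21 replicate 4 or 5, control ZT3 replicate 1 or 2, or Bmal1ΔcDC ZT3 replicate 2, and with the replicate number as a block 1 gene, Taf15, passed.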

How the results depend on the processing

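Insig1 passed under all 21 alternatives of the control tumour comparison, and Ltb4r1 passed under 15, Tma16 under 13, F2r under 11 and Mbd2 under 7. The number of genes that rose was 1 with a pseudocount of 0.1, 0 with median-of-ratios scaling, 6 with a minimum mean of 10 CPM, 6 with an intensity trend and 8 with array weights. The number that fell was 6, 7 and 8 under the last 3 of these. Without both low-correlation libraries 0 genes rose and 1 fell, with or without median-of-ratios scaling. Leaving out 1 library gave 0 to 10 genes that rose and 1 to 8 that fell, the most without ZT21 replicate 2 and the fewest without ZT3 replicate 1, and the cause was not tested. The permutation p of Cd80 stayed between 0.00794 and 0.0238.

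In sham mice 4 genes passed with no filter, and 0 in each run without 1 library. In mice labelled Bmal1ΔcDC 2 passed with array weights and 0 to 2 without 1 library. Between tumour and sham 1 gene passed with no filter and 0 without 1 library. Between genotypes 7 passed with a minimum mean of 10 CPM, 7 with an intensity trend, 183 with array weights and 6 with only ZT3 and ZT21 libraries. Without the low-correlation libraries 7 passed, and without 1 library 0 to 55, the most without Bmal1ΔcDC ZT21 replicate 3. With only ZT3 and ZT21 libraries F2r and Taf15 did not pass (adjusted p = 0.13 and 0.109, limma). F2r did not pass with a pseudocount of 0.1 (0.114), nor Taf15 with an intensity trend (0.0547).

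Same-numbered libraries of ZT3 and ZT21 correlated between −0.0757 and 0.0518 in their deviations. Only replicate 5 correlated more with its own number (0.0518) than with any other (0.0302). These correlations cannot exclude that same-numbered mice shared an experiment. With the replicate number as a block 0 genes rose, 1 fell and 1 differed between genotypes. The removal of the low-correlation libraries was added after the data had been seen. Values of genes near 1 CPM rest on few reads.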
